A study of Homo sapiens with 60 samples.

Results

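The genes described here are 10 members of the NF-kB circuit: the subunit genes NFKB1, NFKB2 and RELB, the inhibitor genes NFKBIA and NFKBIZ, the ubiquitin feedback genes TNFAIP3, TNIP1 and BIRC3, and the classical targets TNFAIP2 and ICAM1. Only their RNA was measured, and the activity of NF-kB was not. They were taken by gene symbol, mapped from the Ensembl identifiers of the deposited count table. The choice of members was made with earlier results of these data known. All 10 were found among 60675 genes, and all 10 passed the filter on low counts that left 16356 genes for testing. The comparison at the centre is that of 2 herbal formulae, Sagunja-tang and Samul-tang.

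RNA was sequenced from HT29 cells, an established human colorectal adenocarcinoma line, after 24 h with a hot water extract or with the vehicle. Single plant drugs were Astragali Radix, Paeoniae Radix, Cinnamomi Cortex, Rehmanniae Radix Preparata and Cnidii Rhizoma, and the formulae were Sagunja-tang and Samul-tang, each at nominal doses of 500, 100 and 20 µg/mL. The vehicle and 18 treated groups had 3 libraries each, and Paeoniae Radix had 1 library per dose, 60 libraries in all. All cells were of the same line, with no genetic change named in the labels. The vehicle was dimethyl sulfoxide, given as 0.1% in the sample labels and as 2% in the design text. By the design text, the highest dose of an extract was lowered to its 20% inhibitory concentration where that was smaller, and dilutions followed from it, while the sample labels give the same 3 doses for every extract. The labels do not give the plants in the formulae. In general use, Sagunja-tang combines ginseng, Atractylodes rhizome, Poria and licorice, and Samul-tang combines prepared Rehmannia root, peony, Cnidium and Angelica roots.

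NF-kB is a family of dimeric transcription factors built from RELA, REL, RELB and the products of NFKB1 and NFKB2. In resting cells the dimers are held in the cytoplasm by inhibitors such as the product of NFKBIA. Cytokine or bacterial signals activate the IkB kinase complex, the inhibitor is degraded, and the freed dimers switch on genes of inflammation and cell survival together with genes that shut the pathway off again. In colon epithelium this circuit is known for its part in the defence against gut bacteria and in inflammation-linked cancer.

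Under the vehicle the members differed widely in level. Levels are CPM, counts per fixed library total with TMM scaling, and for comparison between genes they were divided by the exon length of the gene in kilobases. This length merges all annotated exons of a gene, and the transcripts present may be shorter. The order of the genes depends on it, and the SD between libraries does not cover it. Without the division TNIP1 was at 94.2 ± 1.71 CPM and TNFAIP2 at 91.2 ± 3.32 CPM (SD, n = 3). Per kilobase, TNFAIP2 was the highest member at 18.1 ± 0.661 CPM (SD, n = 3), followed by TNIP1 at 16.3 ± 0.295, NFKBIA at 11.1 ± 0.315, NFKB1 at 9.28 ± 0.349 and NFKBIZ at 8.99 ± 0.217. Of these neighbours, NFKB1 and NFKBIZ did not differ beyond their spread. The subunits NFKB2 and RELB stood at 3.40 ± 0.154 and 2.59 ± 0.352 CPM per kilobase, ICAM1 at 1.37 ± 0.132 and BIRC3 at 1.15 ± 0.242, the last pair again within each other's spread. TNFAIP3 was the least abundant, at 0.447 ± 0.104 CPM per kilobase, and rested on 33 to 111 counts per library over the 57 tested libraries. RELA, the main activating subunit and not a member, was at 24.5 ± 1.99 CPM per kilobase.

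The promoters of the members were read from RefSeq (GRCh38.p14) as windows from 250 bases before to 50 bases after an annotated start, and searched on both strands for the NF-kB consensus decamer, a motif of 10 bases, with overlapping matches merged. The table held 14 windows for 9 of the 10 genes, RELB being the gene with no entry. A match stood in 9 of the 14 windows and in 7 of the 9 genes (77.8%), namely NFKB1, NFKB2, NFKBIA, NFKBIZ, TNFAIP3, TNIP1 and BIRC3, against 5.91% of all 35116 windows and 7.09% of all 27305 genes. These genes are known as targets of NF-kB, so the share describes the choice of members. Windows of TNFAIP2 and ICAM1 held no match, which says only that these letters are not there. The 250 bases before the start are shown for 4 genes that differed in their response, 5′ to 3′ on the strand of the gene with the matched decamers in capitals. TNFAIP3 (chr6:137867009-137867258, + strand) and BIRC3 (chr11:102317234-102317483, + strand) had 2 matches each, where 0.302% of all windows had at least 2. NFKBIA (chr14:35404750-35404999, - strand) had 1, and NFKB1 (chr4:102501109-102501358, + strand), the member not called between the formulae, had 1 in this window. In the 3 first genes the capitals are the decamer on the opposite strand, and in NFKB1 they are the decamer itself.
TNFAIP3: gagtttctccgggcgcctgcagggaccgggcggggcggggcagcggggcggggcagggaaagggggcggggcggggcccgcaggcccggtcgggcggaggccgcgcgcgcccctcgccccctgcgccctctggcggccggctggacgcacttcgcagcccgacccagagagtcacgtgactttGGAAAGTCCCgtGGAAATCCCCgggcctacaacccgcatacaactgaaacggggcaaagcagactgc
BIRC3: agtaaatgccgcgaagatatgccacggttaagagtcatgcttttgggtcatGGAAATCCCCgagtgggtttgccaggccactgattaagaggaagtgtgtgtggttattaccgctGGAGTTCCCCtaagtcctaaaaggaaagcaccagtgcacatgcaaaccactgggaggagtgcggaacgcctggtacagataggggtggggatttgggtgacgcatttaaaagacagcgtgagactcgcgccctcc
NFKBIA: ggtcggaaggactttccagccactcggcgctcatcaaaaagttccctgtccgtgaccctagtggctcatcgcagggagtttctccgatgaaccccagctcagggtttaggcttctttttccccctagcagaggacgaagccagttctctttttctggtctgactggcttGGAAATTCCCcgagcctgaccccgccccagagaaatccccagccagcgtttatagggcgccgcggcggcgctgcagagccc
NFKB1: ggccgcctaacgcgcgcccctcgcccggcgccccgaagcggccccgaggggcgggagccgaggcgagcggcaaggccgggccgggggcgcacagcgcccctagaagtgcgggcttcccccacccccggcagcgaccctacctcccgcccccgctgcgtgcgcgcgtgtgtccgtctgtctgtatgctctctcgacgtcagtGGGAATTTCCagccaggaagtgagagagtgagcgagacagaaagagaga
The matches began 67 and 55 bases before the start in TNFAIP3, 199 and 135 bases before it in BIRC3, 81 bases before it in NFKBIA and 49 bases before it in NFKB1. NFKB2, not shown, also had windows with 2 matches, and its log2 difference between the formulae over the doses was 0.26. A match is a run of letters and was not tested for binding, nor was the number of matches tested against the response.

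The 60 libraries held 20459346 to 36253747 counts. The titles name 1 batch, BatchB, for all libraries. The labels define no further division, but libraries were divided here into 2 sets along their sample codes, with the boundary chosen with earlier results of these data known and falling within 1 code series. The first set of 27 libraries holds the vehicle, every library of Rehmanniae Radix Preparata and Cnidii Rhizoma, and the libraries numbered 1 of Astragali Radix and Cinnamomi Cortex, and the second set of 30 holds both formulae and the libraries numbered 2 and 3 of Astragali Radix and Cinnamomi Cortex. A formula and the vehicle differ in set as well as in treatment, while Sagunja-tang and Samul-tang lie in the same set at every dose. Mitochondrial messenger RNA made up 10.0% ± 1.36 (SD, n = 3) of vehicle counts, 6.78% ± 0.50 (n = 9) of Sagunja-tang counts and 6.71% ± 0.69 (n = 9) of Samul-tang counts, and the part of this in the comparisons with the vehicle was not tested. All 9 markers of colon epithelium were expressed, with a summed level of 11149 to 12650 CPM in vehicle and formula libraries. Of 7 leukocyte markers 5 were under 1 CPM in every library, among them PTPRC at no more than 0.106 CPM and CD2 at 0, and CD68 at 3.67 to 9.75 CPM made up most of the sum. The summed level was 8.33 to 10.8 CPM in the vehicle, 6.40 to 8.26 in Sagunja-tang and 5.62 to 8.07 in Samul-tang. Summed fibroblast markers were at 1.55 to 2.57 CPM and endothelial markers at 1.32 to 2.43 CPM over the same libraries. Whether replicates came from separate cultures is not stated in the labels, so each p-value below reflects only how these libraries vary, and that variation may be technical.

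Sagunja-tang and Samul-tang differed in most members. Averaged over the 3 doses, 9 of the 10 genes were higher with Sagunja-tang and 0 were lower, against 0.636% of all 16356 genes called higher and 0.055% called lower (edgeR quasi-likelihood test, adjusted p under 0.05). ICAM1, BIRC3 and TNFAIP3 differed most, by 1.95, 1.75 and 1.62 times, and the other 6 called genes by 1.09 to 1.22 times. NFKB1 was the member not called. The median difference over the 10 members was 0.27 on the log2 scale and that over all genes was -0.001. Because the members were chosen with earlier results of these data known, their count and median are a description. In bulk RNA, fewer cells with a transcript and less of it per cell cannot be told apart.

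**Figure D1:**
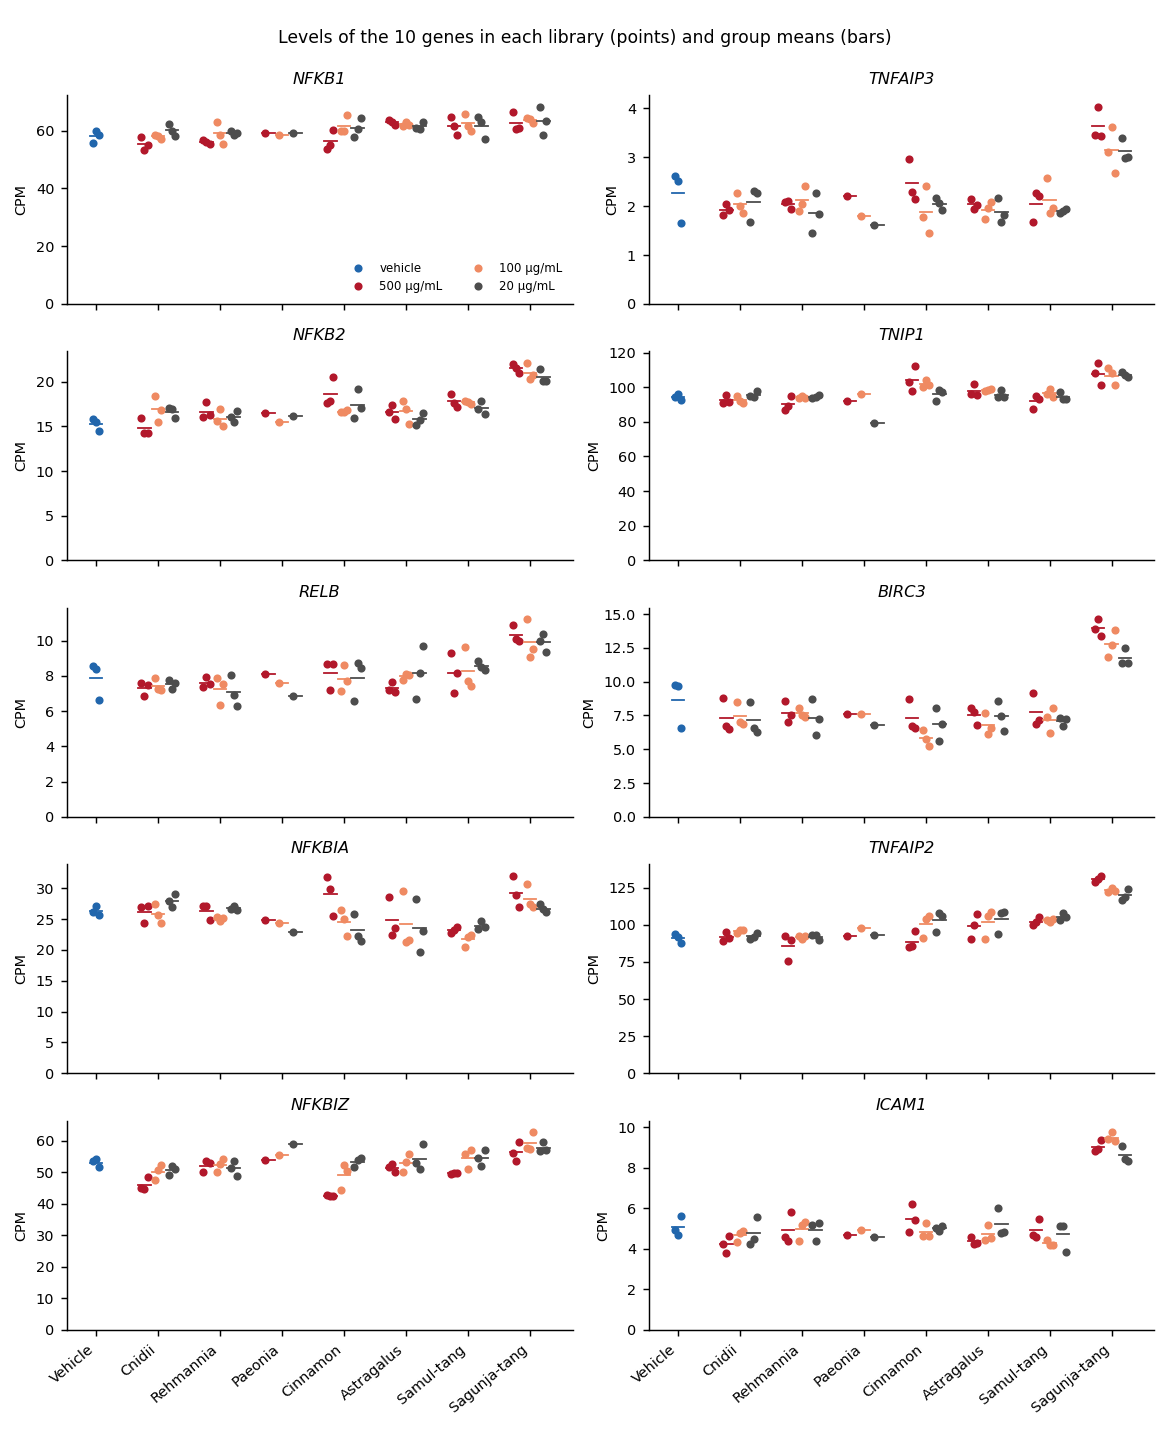
Level of each member in CPM (vertical axis, from 0) for every library, with the bar at the group mean. Columns are the vehicle and each extract, colours are doses, and Sagunja-tang at the right stands above Samul-tang for all members but NFKB1, with libraries of RELB and NFKBIZ overlapping.

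Among the subunits, NFKB2, which encodes the precursor of the non-canonical subunit and lies on chromosome 10 from 102394110 to 102402529 (GRCh38, GENCODE 29; ENSG00000077150), showed the clearest difference. At 500 µg/mL its level was 22.0, 21.5 and 21.0 CPM with Sagunja-tang, 18.6, 17.6 and 17.2 with Samul-tang and 15.8, 15.5 and 14.5 in the vehicle. All 3 groups were apart, with Samul-tang between the others. Over all doses the 9 Sagunja-tang libraries ran from 20.1 to 22.1 CPM (median 21.0) and the 9 Samul-tang libraries from 16.4 to 18.6 (median 17.6). The log2 difference over the doses was 0.26 (SE 0.04, edgeR adjusted p = 2.9e-06).

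RELB, the partner of the NFKB2 product (chromosome 19, 45001430 to 45038198; ENSG00000104856), was at 9.09 to 11.2 CPM (median 9.97) with Sagunja-tang and at 7.05 to 9.63 (median 8.33) with Samul-tang. Single libraries overlapped at 100 µg/mL, where replicate 1 of Samul-tang reached 9.63 and replicate 2 of Sagunja-tang was at 9.09. The log2 difference over the doses was 0.27 (SE 0.07, edgeR adjusted p = 0.023). This call was lost, with an adjusted p of up to 0.10, when any of 8 libraries was left out: replicate 1 of Sagunja-tang at 500, 100 or 20 µg/mL, its replicate 2 at 20, replicate 2 of Samul-tang at 500 or 100, or its replicate 3 at 100 or 20 µg/mL. NFKB1 encodes the precursor of the canonical DNA-binding subunit (chromosome 4, 102501329 to 102617302; ENSG00000109320). Its level was 58.5 to 68.3 CPM with Sagunja-tang, 57.1 to 65.8 with Samul-tang and 55.7 to 60.0 in the vehicle. The ranges overlapped throughout, and the difference between the formulae was 0.03 on the log2 scale (SE 0.03, edgeR adjusted p = 1).

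The inhibitor genes differed unequally, NFKBIA by more than NFKBIZ. NFKBIA encodes IkB alpha, the inhibitor that is degraded and made again in each round of signalling (chromosome 14, 35401511 to 35404749; ENSG00000100906). At 500 µg/mL its level was 32.0, 28.9 and 27.0 CPM with Sagunja-tang, 22.7, 23.2 and 23.7 with Samul-tang and 26.1, 27.1 and 25.6 in the vehicle. Every Sagunja-tang library over the 3 doses (26.1 to 32.0 CPM) was above every Samul-tang library (20.5 to 24.7), and the vehicle lay between or within the Sagunja-tang range. The log2 difference over the doses was 0.29 (SE 0.06, edgeR adjusted p = 0.001), while no single dose passed the threshold, with log2 differences of 0.33 at 500, 0.38 at 100 and 0.16 at 20 µg/mL. NFKBIZ encodes the nuclear inhibitor-like protein IkB zeta, a co-regulator of a second wave of target genes (chromosome 3, 101827991 to 101861022; ENSG00000144802). It was at 53.5 to 62.6 CPM with Sagunja-tang and at 49.4 to 57.1 with Samul-tang, ranges that overlapped. Its difference of 0.13 (log2, SE 0.03, edgeR adjusted p = 0.024) was the smallest of those called, and it lost the call without replicate 2 of Sagunja-tang at 20, replicate 3 of Sagunja-tang at 500 or 100, or replicate 2 of Samul-tang at 100 or 20 µg/mL, with an adjusted p of up to 0.12.

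The ubiquitin feedback genes included 2 of the 3 largest differences. TNFAIP3 encodes a ubiquitin-editing enzyme that switches off the receptor complexes upstream of the IkB kinase (chromosome 6, 137867188 to 137883312; ENSG00000118503). At 500 µg/mL its level was 3.46, 4.04 and 3.44 CPM with Sagunja-tang, 1.68, 2.28 and 2.20 with Samul-tang and 2.61, 2.51 and 1.66 in the vehicle. The Sagunja-tang libraries were the highest without overlap, and vehicle replicate 3 lay below the lowest Samul-tang value. Over the doses the ranges lay close, at 2.68 to 4.04 CPM with Sagunja-tang and 1.68 to 2.57 CPM with Samul-tang, and the log2 difference was 0.70 (SE 0.09, edgeR adjusted p = 6.8e-07).

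BIRC3 encodes a ubiquitin ligase of the inhibitor of apoptosis family that acts in both arms of the pathway (chromosome 11, 102317450 to 102339403; ENSG00000023445). At 500 µg/mL it was at 13.9, 14.6 and 13.4 CPM with Sagunja-tang, at 9.17, 6.87 and 7.19 with Samul-tang and at 9.77, 9.69 and 6.57 in the vehicle. Over the 3 doses the lowest Sagunja-tang library, at 11.4 CPM, was above the highest Samul-tang library at 9.17 and the highest vehicle library at 9.77. The log2 difference was 0.81 (SE 0.08, edgeR adjusted p = 2.6e-10). TNIP1 encodes a ubiquitin-binding partner of the TNFAIP3 product (chromosome 5, 151029945 to 151093577; ENSG00000145901). Its Sagunja-tang libraries at 101 to 114 CPM were above all Samul-tang libraries at 87.6 to 98.9, a log2 difference of 0.19 (SE 0.02, edgeR adjusted p = 3.5e-07).

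Both targets were higher with Sagunja-tang in every library, ICAM1 by more than TNFAIP2. ICAM1 encodes an adhesion molecule that binds leukocyte integrins (chromosome 19, 10270835 to 10286615; ENSG00000090339). It was at 8.82, 8.91 and 9.35 CPM with Sagunja-tang at 500 µg/mL, at 4.68, 4.56 and 5.47 with Samul-tang and at 4.92, 4.67 and 5.62 in the vehicle. The Samul-tang and vehicle libraries were intermixed, and all 9 Sagunja-tang libraries (8.32 to 9.75 CPM) were above them. The log2 difference over the doses was 0.96 (SE 0.06, edgeR adjusted p = 2.2e-16), which all leave-outs of 1 formula library kept between 0.92 and 0.99. TNFAIP2 encodes a cytokine-induced protein of membrane remodelling (chromosome 14, 103123442 to 103137439; ENSG00000185215). Its level at 500 µg/mL was 129, 131 and 133 CPM with Sagunja-tang, 99.8, 102 and 105 with Samul-tang and 94.0, 92.0 and 87.5 in the vehicle, 3 ranges without overlap. The log2 difference over the doses was 0.27 (SE 0.04, edgeR adjusted p = 7.2e-07).

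**Figure D2:**
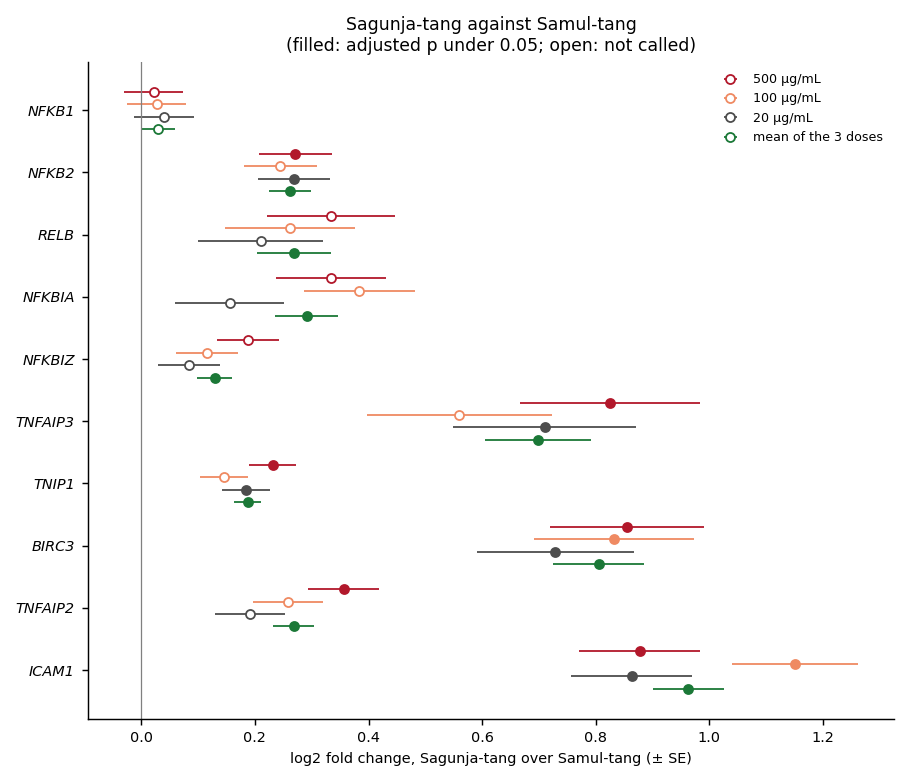
Log2 fold change of each member between Sagunja-tang and Samul-tang (horizontal axis, points with SE bars) at each dose and as the mean of the doses, filled where the edgeR adjusted p was under 0.05. ICAM1, BIRC3 and TNFAIP3 lie farthest to the right and NFKB1 lies near 0.

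Library by library, the 9 Sagunja-tang libraries were all above the 9 Samul-tang libraries for 7 of the 10 members, NFKB2, NFKBIA, TNFAIP3, TNIP1, BIRC3, TNFAIP2 and ICAM1, and for 0.342% of all genes. For RELB, NFKBIZ and NFKB1 the ranges overlapped. At single doses, with 3 libraries against 3, Sagunja-tang was above Samul-tang without overlap for 9 members at 500 µg/mL (5.72% of all genes), for 8 at 100 (4.07%) and for 8 at 20 (5.02%), and below it for 0 at each dose (4.82%, 4.03% and 4.49%). The tests at single doses called 6 members higher at 500 µg/mL (0.287% of all genes), 2 at 100 (0.251%) and 5 at 20 (0.238%), and 0 lower at each dose (0.0306%, 0% and 0% of all genes). ICAM1 and BIRC3 were called at every dose, ICAM1 at log2 differences of 0.88, 1.15 and 0.86 and BIRC3 at 0.86, 0.83 and 0.73 from the top to the lowest dose. TNFAIP3, TNIP1 and NFKB2 were called at 500 and 20 µg/mL, and TNFAIP2 at 500 µg/mL. At 20 µg/mL only ICAM1 and BIRC3 kept the call without any 1 of the 6 libraries, with 3 members called without replicate 1 of Samul-tang and 2 without any of the other 5. At 500 µg/mL NFKB2 lost the call without any library but replicate 1 of Samul-tang, and TNFAIP3 without that one.

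No member was called for a dependence on dose in either formula. The change of the formula difference with dose had log2 interaction values (500 against 20 µg/mL, Sagunja-tang minus Samul-tang) of -0.02 to 0.18. Over all 16356 genes this test called 0 (0%), with 444 at an unadjusted p under 0.05, and DESeq2 called 2, none of them a member. Within Sagunja-tang, 500 against 20 µg/mL gave log2 differences of -0.03 to 0.25 over the members with 0 called (0.00611% of all genes, 1598 at an unadjusted p under 0.05, and 42 genes but 0 members by DESeq2), and Samul-tang also had 0 called (0.141%, 1070 at an unadjusted p under 0.05, and 0 members by DESeq2). BIRC3 illustrates the extent, at 14.0 ± 0.590, 12.8 ± 1.01 and 11.7 ± 0.673 CPM (SD, n = 3) from the top to the lowest dose, and ICAM1 had its highest mean at 100 µg/mL, 9.49 ± 0.236 CPM. Over 6 extracts, 500 against 20 µg/mL gave 3 calls among 60 tests of members (1.84% of all tests of genes), all with Cinnamomi Cortex. The Cinnamomi Cortex comparison alone called 1670 of all 16356 genes. There NFKBIA was higher by 0.33 and NFKBIZ and TNFAIP2 fell by 0.33 and 0.21 on the log2 scale (edgeR adjusted p = 0.023, 3.5e-05 and 0.02).

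Against the vehicle, most members were higher with Sagunja-tang and few with Samul-tang. At 500 µg/mL Sagunja-tang had 7 members called higher and 0 lower (11.7% of all genes called higher), at 100 µg/mL 8 (9.34%) and at 20 µg/mL 7 (9.68%). Of all genes 8.5%, 7.23% and 8.85% were called lower at these doses. ICAM1 rose by 0.84, 0.91 and 0.77 on the log2 scale from the top to the lowest dose, TNFAIP2 by 0.52, 0.44 and 0.40, NFKB2 by 0.49, 0.46 and 0.43, BIRC3 by 0.67, 0.55 and 0.42, and TNFAIP3 by 0.68, 0.46 and 0.45. RELB and TNIP1 were also called at each dose, and NFKBIZ at 100 µg/mL. Of the 9 Sagunja-tang libraries all were above all vehicle libraries for 7 members (10.9% of all genes), and below them for 0 (9.38%). The 7 were NFKB2, RELB, TNFAIP3, TNIP1, BIRC3, TNFAIP2 and ICAM1. ICAM1, TNFAIP2, NFKB2 and TNIP1 kept the call at every dose without any 1 library. Without vehicle replicate 3, which had the lowest BIRC3, TNFAIP3 and RELB of the 3 vehicle libraries, those genes lost the call at 100 and 20 µg/mL and RELB also at 500, leaving 4 members at each lower dose, and BIRC3 stood at 0.40 and 0.28 on the log2 scale. The NFKBIZ call at 100 µg/mL was lost in 5 of 6 leave-outs, all but replicate 2 of Sagunja-tang, with an edgeR adjusted p of up to 0.25. RELB lost its call at 500 µg/mL also without replicate 1 of Sagunja-tang, at 100 without vehicle replicate 2 or replicate 1 or 3 of Sagunja-tang, and at 20 in 5 of 6 leave-outs, all but vehicle replicate 1 (adjusted p up to 0.27 over the doses). TNFAIP3 lost it at 100 µg/mL also without vehicle replicate 2 or replicate 1 or 2 of Sagunja-tang, at 20 in 5 of 6 leave-outs, all but vehicle replicate 1 (adjusted p up to 0.29), and at both doses with DESeq2 (adjusted p = 0.06 and 0.067) and without the filter on low counts. BIRC3 lost it at 20 µg/mL also without any of the 3 Sagunja-tang libraries (adjusted p up to 0.088). Called members numbered 5 at both lower doses without vehicle replicate 2, 5 at 100 µg/mL without replicate 1 of Sagunja-tang, 4 at 20 µg/mL without its replicate 1 or 3, and 5 without its replicate 2, where NFKB1 was called too.

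Samul-tang had 1 member called at 500 µg/mL (NFKB2 higher by 0.22, edgeR adjusted p = 0.017; 10.2% of all genes higher and 8.3% lower), 3 at 100 µg/mL (NFKB2 higher by 0.22, TNFAIP2 higher by 0.18 and NFKBIA lower by the log2 value -0.28, adjusted p = 0.019, 0.037 and 0.04; 12% higher and 9.94% lower) and 1 at 20 µg/mL (TNFAIP2 higher by 0.21, adjusted p = 0.029; 5.85% higher and 5.11% lower). These shares of the 10 members were near those of all genes. Without vehicle replicate 3, 0 members were called at each dose, and likewise without replicate 1 of Samul-tang at 500 or 100 µg/mL, and without vehicle replicate 2 or replicate 2 or 3 of Samul-tang at 20 µg/mL. At 100 µg/mL 1 member was called without vehicle replicate 2 or without replicate 2 or 3 of Samul-tang, and NFKBIA lost its call without any of the 6 libraries. The 9 Samul-tang libraries were all above the vehicle for NFKB2 and TNFAIP2 (11.1% of all genes) and all below it for NFKBIA (9.86%). ICAM1, BIRC3 and TNFAIP3 had log2 values of -0.31 to -0.04 against the vehicle over the doses, and none was called. All comparisons with the vehicle share its 3 libraries.

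The library sets moved with some of these results. NFKBIA was at 25.8 to 31.8 CPM (median 28.4) in the 6 libraries of replicate 1 of Cinnamomi Cortex and Astragali Radix, which are in the first set, and at 19.6 to 29.8 CPM (median 22.3) in the 12 libraries of replicates 2 and 3 of the same extracts, in the second set. TNFAIP2 went the other way, at 84.8 to 95.0 CPM (median 90.9) in the former and at 86.0 to 109 CPM (median 106) in the latter. The 29.8 and the 86.0 both came from replicate 2 of Cinnamomi Cortex at 500 µg/mL. ICAM1 had like levels in both, with medians of 4.73 and 4.86 CPM, and BIRC3 was at 8.04 and 6.57 CPM.

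**Figure D3:**
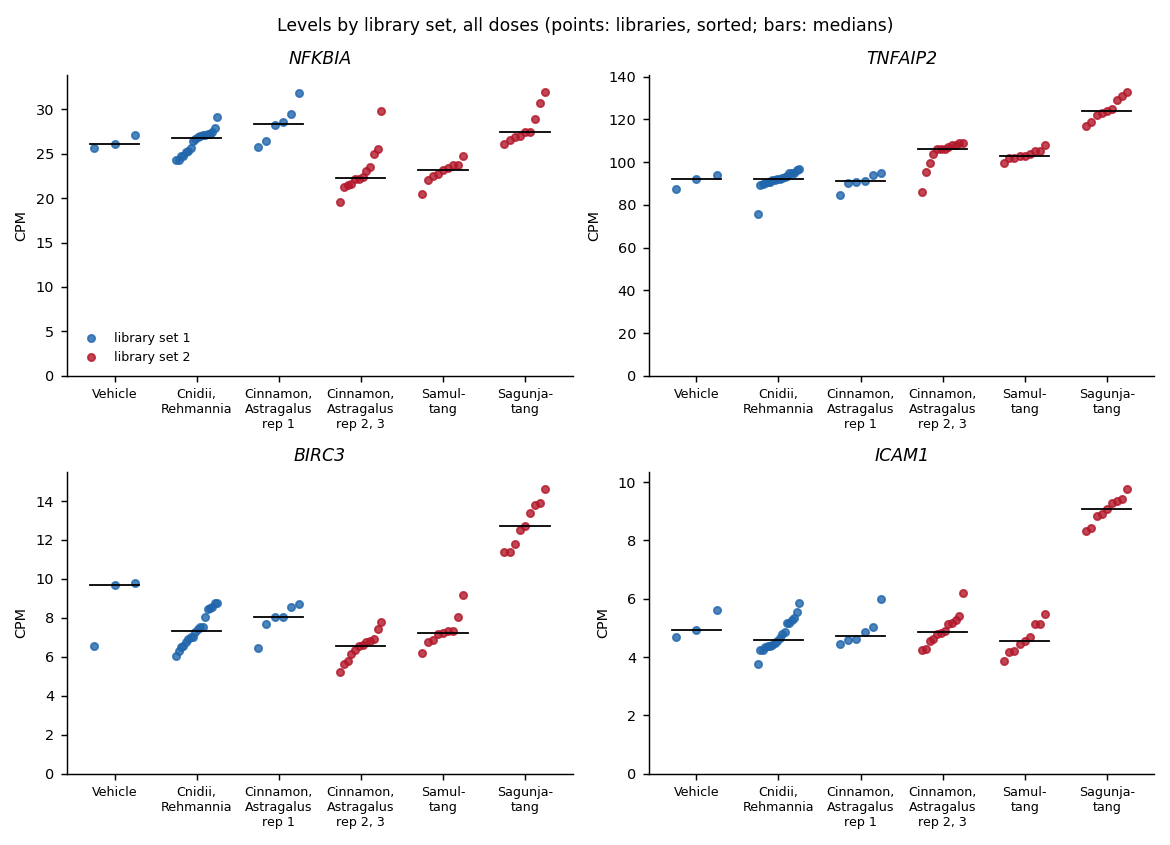
Levels of NFKBIA, TNFAIP2, BIRC3 and ICAM1 in CPM (vertical axis, from 0) for all doses together, each point a library and each bar a median, with the first library set in blue and the second in red. NFKBIA is lower and TNFAIP2 higher in second-set plant libraries than in first-set ones, and Samul-tang lies with the second-set plant libraries while Sagunja-tang lies above them for TNFAIP2, BIRC3 and ICAM1 and overlaps them for NFKBIA.

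A term for the library set was added to the fit, and it rests on the 6 groups that lie in both sets. In these groups the first set is replicate 1 and the second is replicates 2 and 3. The term therefore cannot be told apart from replicate number. With the term, Sagunja-tang had 6, 5 and 5 members called higher than the vehicle from the top to the lowest dose (1.08%, 0.416% and 0.507% of all genes). Samul-tang had 0 called at each dose (1.22%, 0.55% and 0.367% of all genes in either direction, with 2132, 1765 and 1245 genes at an unadjusted p under 0.05). NFKBIA, not called without the term at log2 values of 0.16, 0.11 and 0.02, was called higher with it at 0.45, 0.40 and 0.32 (edgeR adjusted p = 0.00022, 0.0016 and 0.025). TNFAIP2 stayed called at smaller values of 0.33, 0.25 and 0.21. BIRC3 stayed called at larger values of 0.96, 0.83 and 0.71, and NFKB2 (0.45, 0.42 and 0.38) and ICAM1 (0.83, 0.91 and 0.76) at values near those without the term, while RELB, TNIP1 and NFKBIZ were not called at any dose and TNFAIP3 was called at 500 µg/mL. For Samul-tang at 100 µg/mL, NFKBIA moved from -0.28 to 0.02 and TNFAIP2 from 0.18 to -0.01. DESeq2 without the term called 2, 3 and 1 members for Samul-tang.

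**Figure D4:**
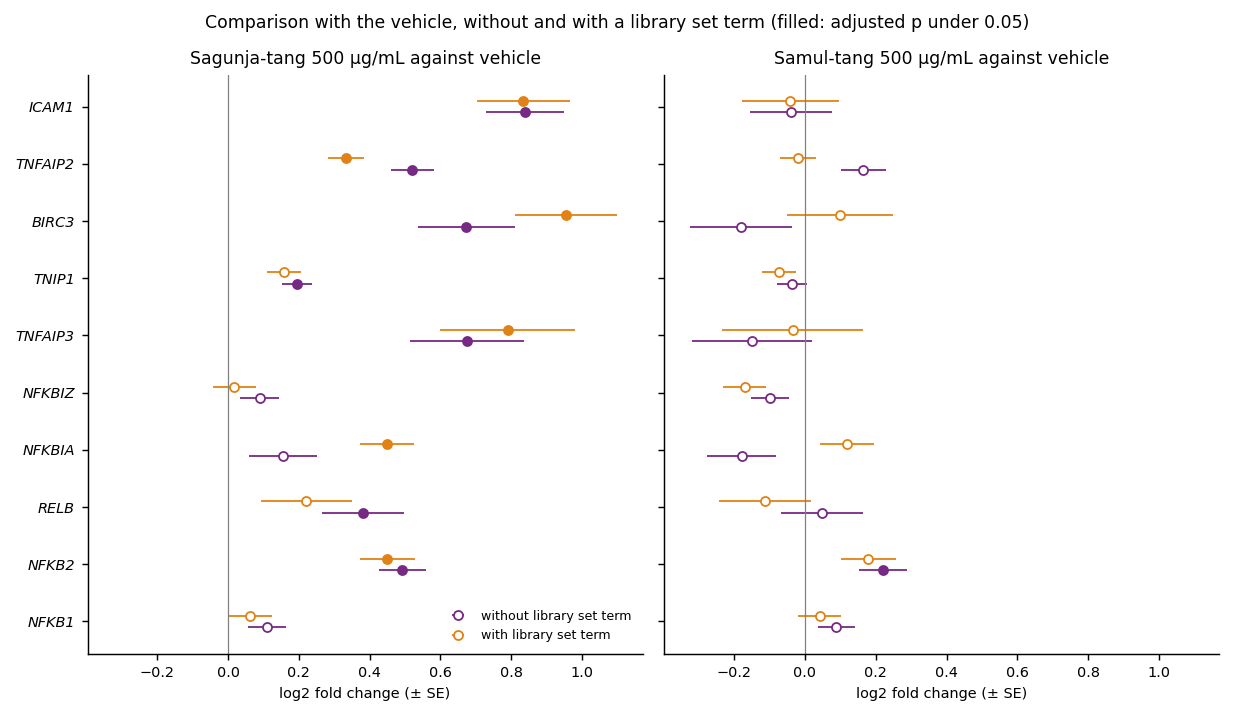
Log2 fold change against the vehicle (horizontal axis, points with SE bars) for Sagunja-tang (left) and Samul-tang (right) at 500 µg/mL, without the library set term in purple and with it in orange, filled where the edgeR adjusted p was under 0.05. NFKBIA with Sagunja-tang moves from 0.16 to 0.45 and TNFAIP2 from 0.52 to 0.33 when the term is added, and ICAM1 hardly moves.

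Within the second set the formulae can be placed beside plant drugs without a model. The 9 Sagunja-tang libraries were all above the 12 second-set plant libraries for 4 members, TNFAIP3, BIRC3, TNFAIP2 and ICAM1 (0.306% of all genes), and below them for 0 (0.0245%). For Samul-tang against the same 12 libraries 0 of 10 members were apart in either direction (0.00611% of all genes higher and 0.0122% lower). Against all 51 other libraries, the 3 of Paeoniae Radix included, Sagunja-tang stood above without overlap for TNFAIP2, BIRC3 and ICAM1 (0.177% of all genes). The nearest of those 51 libraries reached 109 CPM for TNFAIP2 where the lowest Sagunja-tang library had 117, 9.77 against 11.4 for BIRC3 and 6.19 against 8.32 for ICAM1.

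Ordered by mean level over the 19 tested groups, the 3 Sagunja-tang groups took the top 3 places for 8 members, and 2 of the top 3 for NFKB1 and NFKBIA. The next group was Cinnamomi Cortex at 500 µg/mL for ICAM1 (5.49 ± 0.675 CPM, SD, n = 3), TNFAIP3 (2.47 ± 0.441), NFKB2 (18.7 ± 1.57) and TNIP1 (104 ± 7.19), Samul-tang for RELB (8.55 ± 0.262 at 20 µg/mL), NFKBIZ (54.6 ± 3.24 at 100 µg/mL) and TNFAIP2 (105 ± 2.58 at 20 µg/mL), and the vehicle for BIRC3 (8.68 ± 1.82). For NFKBIA, Cinnamomi Cortex at 500 µg/mL (29.0 ± 3.19 CPM) stood within the spread of Sagunja-tang at 500 µg/mL (29.3 ± 2.55). For TNIP1 the same extract lay within the spread of the lowest Sagunja-tang group. The lowest group was Cnidii Rhizoma at 500 µg/mL for NFKB1, NFKB2 and ICAM1 and Cinnamomi Cortex at 500 µg/mL for NFKBIZ (42.5 ± 0.258 CPM).

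With single plant drugs few members were called. Over 12 comparisons with the vehicle there were 5 calls among 120 tests of members (2.78% of all tests of genes called). Of the 16356 genes, 2113 and 1321 were called with Cinnamomi Cortex at 500 and 100 µg/mL, and 242 with Cnidii Rhizoma at 500 µg/mL. With Cinnamomi Cortex at 500 µg/mL, NFKB2 was higher by 0.29 and TNIP1 by 0.14 and NFKBIZ fell by 0.32 on the log2 scale (edgeR adjusted p = 0.0021, 0.019 and 4e-05). NFKBIZ levels there were 42.8, 42.5 and 42.3 CPM, below every vehicle library at 53.4, 54.1 and 51.6. With Cinnamomi Cortex at 100 µg/mL BIRC3 fell by 0.59 (adjusted p = 0.013), and with Cnidii Rhizoma at 500 µg/mL NFKBIZ fell by 0.21 (adjusted p = 0.039). With the library set as a term the BIRC3 call was lost (log2 -0.41, SE 0.15, edgeR adjusted p = 0.16), as was that of TNIP1 (0.12, SE 0.04, adjusted p = 0.08), and the other 3 were kept. The BIRC3 call was also lost without vehicle replicate 1 or 2 or plant replicate 2 or 3 (adjusted p up to 0.13), that of TNIP1 without vehicle replicate 3 or plant replicate 3 (up to 0.33) and without the filter on low counts (0.13), that of NFKB2 without plant replicate 3 (0.067), and that of NFKBIZ with Cnidii Rhizoma in each of 6 leave-outs (up to 0.26) and without the filter (0.083). Astragali Radix and Rehmanniae Radix Preparata, the latter a usual ingredient of Samul-tang, had 0 members called at any dose. Of all 16356 genes they had 585, 410 and 227, and 104, 34 and 71 called from the top to the lowest dose. With shares this low, 0 of 10 genes does not set the members apart from other genes. The count for the plant drugs ran from 1 to 16 when each replicate number of the plant drugs, or each vehicle library, was left out, the 16 being without their replicate 1. Paeoniae Radix, with 1 library per dose and no test, had ICAM1 at 4.67, 4.95 and 4.56 CPM and BIRC3 at 7.57, 7.62 and 6.77 CPM from the top to the lowest dose, both within the range of the other plant drugs, and NFKBIZ at 53.7, 55.3 and 59.0 CPM.

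Other genes of the pathway came from a list of 89 genes by role, of which 71 were tested. In the comparison of the formulae over the doses, 14 of the 71 were higher with Sagunja-tang and 0 lower. They were 13 of 24 tested targets and 1 of 13 other inhibitors and editors, while 0 of 9 receptors, 0 of 23 adaptors and kinases and 0 of the 2 remaining subunits were called. Of all genes 0.636% were called higher and 0.055% lower, so 0 calls in sets this small does not set them apart from other genes. None of the 6 ligands listed passed the filter on low counts. Median log2 differences were 0.39 for targets, 0.04 for other inhibitors, 0.02 for receptors and 0.01 for adaptors and kinases. The list holds chemokine genes chosen with earlier results of these data known, so its count of targets is a description.

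**Figure D5:**
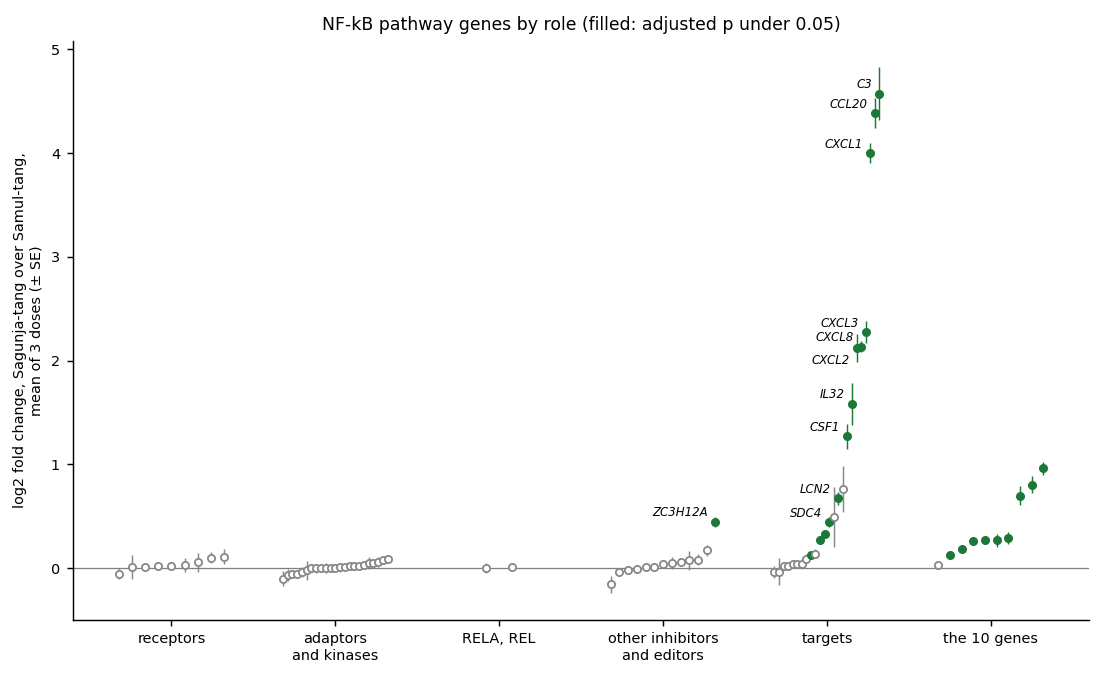
Log2 fold change between Sagunja-tang and Samul-tang over the 3 doses (vertical axis, points with SE bars) for the tested genes of each role in the pathway list and for the 10 members, filled where the edgeR adjusted p was under 0.05. Filled points stand among targets, 1 inhibitor and the members, and receptors, adaptors, kinases and the subunits RELA and REL lie near 0; C3 rests on 1 to 4 counts per Samul-tang library.

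The signalling machinery of the pathway lay near 0 in this comparison. RELA was at 0.02 (log2, SE 0.04) and REL at 0.00 (SE 0.05), the kinase subunits CHUK, IKBKB and IKBKG at 0.00, -0.07 and -0.06, and MAP3K14, the kinase of the non-canonical arm, at -0.04. The receptors TNFRSF1A, IL1R1 and TLR4 were at 0.02, 0.01 and -0.05. Relative to the vehicle, RELA was at -0.25 to -0.18 over both formulae and all doses, called lower at each but Sagunja-tang at 500 µg/mL. IKBKB was at 0.21 to 0.35, called higher with Sagunja-tang at 500 and Samul-tang at 100 and 20 µg/mL. The other genes named so far in this paragraph were not called against the vehicle. The formulae and the vehicle also differ in library set. Among inhibitors, NFKBIB was at 0.06, NFKBIE at 0.18, BCL3 at 0.08 and CYLD at 0.04, none called. ZC3H12A, a ribonuclease that degrades inflammatory messages, was higher by 0.45 (SE 0.05, edgeR adjusted p = 1.8e-08). TNF itself had 2 to 7 counts per Sagunja-tang library, 0 to 2 per Samul-tang library and 0 to 1 in the vehicle, too few for a test.

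Among the called targets the chemokine genes differed more than any member. CXCL1 was higher with Sagunja-tang by 4.00 on the log2 scale (SE 0.10), CXCL8 by 2.14 (SE 0.06) and CCL20 by 4.38 (SE 0.14; 121 to 188 counts per Sagunja-tang library and 4 to 14 per Samul-tang library), with edgeR adjusted p = 4.3e-33, 1.4e-32 and 2.9e-28. CXCL3 and CXCL2 were higher by 2.28 and 2.12, IL32 by 1.59, CSF1 by 1.27, LCN2 by 0.67, SDC4 by 0.45 and PTGS2 by 0.33. Relative to the vehicle at 500 µg/mL, LCN2 and PTGS2 were called lower with Samul-tang (log2 -0.43 and -0.26). With Sagunja-tang LCN2 was at 0.28, not called, and PTGS2 at 0.19, called higher. CXCL1 was at 4.02 with Sagunja-tang and at 0.21, not called, with Samul-tang. The formulae and the vehicle also differ in library set. C3 had 44 to 77 counts per Sagunja-tang library, 1 to 4 per Samul-tang library and 0 to 1 in the vehicle. The largest difference of a member, that of ICAM1 at 0.96, lay between those of LCN2 and CSF1.

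Since 7 members did not overlap between Sagunja-tang and Samul-tang, likeness between members was read within each formula. The Pearson correlation of a member's log2 level with the mean of the others over the 9 Sagunja-tang libraries was 0.77 for NFKB2, 0.74 for NFKBIA, 0.43 for TNFAIP2 and 0.28 for ICAM1, and it was -0.60 for NFKBIZ. Over the 9 Samul-tang libraries the same genes had 0.11, -0.36, 0.05, 0.19 and -0.16. Over all 10 members these values ran from -0.60 to 0.77 within Sagunja-tang and from -0.36 to 0.45 within Samul-tang. The genes outside the lists most like the mean of the members over the 18 libraries were PI3 (r = 0.98), MMP7 (0.96), PLSCR1 (0.93), SGPP2 (0.92), ASS1 (0.91) and OAS2 (0.91). PI3, which encodes the protease inhibitor elafin, was at 17.1 to 29.7 CPM with Sagunja-tang, 3.78 to 5.54 with Samul-tang and 5.27 to 6.33 in the vehicle. These values over 18 libraries include the difference between the formulae, and the libraries share extract, dose and library set.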

How the data were processed

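RNA-seq libraries of HT29 cells were deposited by the authors as 1 table of RSEM expected counts per Ensembl gene, not normalized. The build GRCh38 (hg38) and the tools RSEM 1.3.3, STAR 2.7.3a, Trim Galore 0.6.5 and FastQC 0.11.9 are named in the submitters' processing notes. Annotation release and strand setting: not given in the sources used here. Values were rounded for the count test, 8.8% being fractional. The table has 213 further value columns that were not used. RSEM divides reads shared by overlapping or similar genes, so such genes, and antisense partners, are uncertain.

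Groups came from the sample labels. Genes were tested by quasi-likelihood in edgeR 4.0.16 under R 4.3.3, using TMM factors of 0.938 to 1.043, filterByExpr at a minimum count of 10, 57 libraries, 1 coefficient per group and no block, with Benjamini-Hochberg adjustment over 16356 genes and calls at an adjusted p under 0.05. Paeoniae Radix, with 1 library per dose, was left out of the fit. Log2 fold changes have standard errors (SE), and CPM use the same factors. The script was tested on simulated data. Replicate numbers were not taken as pairs, since same-numbered libraries of the compared formula groups correlated at -0.06 to 0.09 over all tested genes. This check does not describe single members. Alternatives were DESeq2 1.42.0, RLE factors, no filter on low counts, a replicate block, a library set term, the formula libraries alone and leaving out single libraries. Named genes were the members, a panel of pathway genes, up to 12 called pathway genes by size and the 6 most like genes. Members, lists and library sets were chosen with earlier results of these data known.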

Additional observations from a re-analysis of the deposited data

How the results depend on the processing

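The number of members called stayed within 1.5 times its value for the formulae at 500 µg/mL (5 to 7 under all alternatives run), for the mean over doses (7 to 9) and for the dose interaction (0 throughout). At 100 µg/mL, 2 members became 4 without the filter on low counts, with the replicate block, or in the 18 formula libraries alone, and stayed at 2 without any 1 library. At 20 µg/mL, 5 became 3 without the filter and with DESeq2, and 2 to 3 without any 1 library. Sagunja-tang against the vehicle went from 8 to 5 at 100 µg/mL once the library set was a term, and 4 to 7 were called in leave-outs at 100 µg/mL (main 8) and at 20 µg/mL (main 7), with 4 without vehicle replicate 3. Samul-tang went from 1, 3 and 1 to 0 at each dose with the set term and to 2 at 500 µg/mL with the replicate block and with DESeq2, and leave-outs gave 0 to 1, 0 to 2 and 0 to 1, with 0 at each dose without vehicle replicate 3. Plant drugs against the vehicle gave 1 to 16 in leave-outs (main 5), 3 without each vehicle library, 16 without plant replicate 1, 3 without replicate 2 and 1 without replicate 3. For 500 against 20 µg/mL leave-outs gave 1 to 3 (main 3), with 1 without replicate 3. The set term moved 2 called values for Samul-tang at 100 µg/mL to within their SE of 0, with a change of sign. These were NFKBIA at 0.019 (SE 0.078, edgeR adjusted p = 0.96) and TNFAIP2 at -0.009 (SE 0.051, edgeR adjusted p = 0.98). The cause of these changes was not tested.

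No comparison had a clear correlation in all of its same-numbered replicates, though single pairs were higher for 500 against 20 µg/mL. The correlations were -0.06 to 0.09 for the formulae, -0.17 to 0.13 with the vehicle and -0.02 to 0.33 for 500 against 20 µg/mL. They were taken over all tested genes and do not describe single members, some of which shared a replicate order. The replicate block is therefore given only here. It left 6, 5 and 9 calls for the formulae at 500 and 20 µg/mL and over the doses, and 7, 8 and 7 for Sagunja-tang against the vehicle. Depth limits TNFAIP3 most, with 33 to 111 counts per library.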

Other observations

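Replicates of 1 group were not alike for every member. BIRC3 was highest in replicate 1 in 15 of the 19 tested groups, NFKB1 in 13 and NFKBIA in 12, while NFKBIZ was highest in replicate 1 in 1 group and in replicate 3 in 11. TNFAIP2 was highest in replicate 3 in 10 groups and ICAM1 in replicate 3 in 10, 1 of its groups being tied. These counts were made after the values were seen and were not tested, and Cinnamomi Cortex and Astragali Radix have replicate 1 in the first library set and replicates 2 and 3 in the second.

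The vehicle libraries themselves differed in members called higher with Sagunja-tang. Vehicle replicate 3 had the lowest BIRC3 (6.57 CPM against 9.77 and 9.69), TNFAIP3 (1.66 against 2.61 and 2.51) and RELB (6.62 against 8.56 and 8.37), but the highest ICAM1 (5.62 against 4.92 and 4.67). The formula comparison does not use these libraries for its difference.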
